A study of Rattus norvegicus with 72 samples.

Results

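The 36 lung libraries of the H set came from 36 adult male Sprague-Dawley rats whose animal numbers fall into a pair of series. Animals 001 to 024 gave 24 libraries and animals 025 to 046 gave 12, out of 72 libraries in the whole data set. Both series were treated alike on paper. In each, rats breathed either diesel exhaust particles (DEP), as a 1000 ug/m3 aerosol, or filtered air for 6 hours per day on 4 days, and lungs were taken 1, 7 or 27 days later. Day and exposure form 6 blocks, each with 4 libraries of animals 001 to 024 and 2 libraries of animals 025 to 046. The members were chosen by the number in the sample title alone. The H set is the libraries whose titles end in H; the other 36, whose titles end in L, came from rats given 200 ug/m3 or air and are used only where named. The labels do not say what the number series mean, and they give no exposure date, shipment or sequencing run. No gene was deleted and no transgene was used, so the series differ by no genotype that the labels give. Each library came from a piece of lung of 1 animal.

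Lung RNA holds epithelial, endothelial, mesenchymal and immune cells together, and fewer cells of a type cannot be told apart from less RNA per cell. Elastin, encoded by Eln, is the core of the elastic fibres that let alveoli and airways recoil; Fbn1 encodes the fibrillin scaffold of these fibres and Loxl1 an enzyme that crosslinks elastin. Class II molecules of the major histocompatibility complex, such as the alpha chain encoded by RT1-Da in the rat, present peptides to CD4+ T cells and are carried mainly by dendritic cells, B cells, macrophages and, in the lung, type II epithelial cells. Interferons switch on a shared set of antiviral genes, among them Mx2, Oas1a and Ifi44l, through response elements in their promoters.

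Promoters of 3 class II genes and 2 interferon-induced genes are shown because the values of these genes between the series are given in the results that follow; of the 5, RT1-Da passed a test. The sequences are the 250 bases before the annotated start, from RefSeq on the assembly GRCr8, read 5′ to 3′ along the gene's own strand. In the class II promoters, capitals mark CTGATTGG, the core of the Y box, and CCTAGCAAC, the core of the X box, both searched on both strands. RT1-Da lies at chr20:4515165-4515414 on the plus strand, RT1-Ba at chr20:4576807-4577056 on the plus strand and RT1-Bb at chr20:4604119-4604368 on the minus strand.
RT1-Da: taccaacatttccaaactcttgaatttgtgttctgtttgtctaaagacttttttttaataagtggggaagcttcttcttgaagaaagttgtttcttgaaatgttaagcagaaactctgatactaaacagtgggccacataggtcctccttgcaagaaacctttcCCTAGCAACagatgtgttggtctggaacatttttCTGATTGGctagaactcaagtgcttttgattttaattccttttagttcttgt
RT1-Ba: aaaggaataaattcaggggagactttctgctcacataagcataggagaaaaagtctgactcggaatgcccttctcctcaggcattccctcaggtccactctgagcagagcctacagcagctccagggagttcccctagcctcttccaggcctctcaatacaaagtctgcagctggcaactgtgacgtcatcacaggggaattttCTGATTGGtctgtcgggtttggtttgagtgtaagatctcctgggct
RT1-Bb: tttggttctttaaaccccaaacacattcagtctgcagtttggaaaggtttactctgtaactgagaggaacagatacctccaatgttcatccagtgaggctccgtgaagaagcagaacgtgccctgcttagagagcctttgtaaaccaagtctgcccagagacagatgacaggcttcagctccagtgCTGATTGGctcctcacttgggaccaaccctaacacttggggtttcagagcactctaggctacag
All 3 windows hold the Y box core on the gene's strand, and RT1-Da also holds the X box core. The Y box core occurs in 3.19% of 33469 rat promoter windows and the X box core in 0.654%. Of 26 tested genes of the class I, class II and antigen presentation list, 22 had a promoter in the table, and 8 of the 22 held the Y box core.

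In the interferon-induced promoters, capitals mark a core of the interferon-stimulated response element, GAAA then any 2 bases then GAAA, searched on both strands. Oas1a lies at chr12:41330216-41330465 on the plus strand, where 2 matches overlap. Ifi44l lies at chr2:243328473-243328722 on the plus strand, where the first of 2 matches is on the opposite strand.
Oas1a: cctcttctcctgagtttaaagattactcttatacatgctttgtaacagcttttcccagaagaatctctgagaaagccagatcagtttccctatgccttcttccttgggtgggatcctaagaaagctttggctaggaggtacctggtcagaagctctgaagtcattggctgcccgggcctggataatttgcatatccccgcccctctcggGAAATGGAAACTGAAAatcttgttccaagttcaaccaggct
Ifi44l: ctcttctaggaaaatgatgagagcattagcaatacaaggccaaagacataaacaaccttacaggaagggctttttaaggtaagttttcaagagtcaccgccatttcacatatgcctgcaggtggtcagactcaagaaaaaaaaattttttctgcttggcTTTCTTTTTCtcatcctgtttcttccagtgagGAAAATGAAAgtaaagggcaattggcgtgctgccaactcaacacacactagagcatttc
This motif occurs in 3.41% of the promoter windows. It occurs in 10 of the 13 tested interferon-induced genes that have a promoter in the table, out of 21 tested. A match is a description of the letters and does not show binding.

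Library totals ran from 1042336 to 6520180 counts in 33 libraries. They were 105453 for animal 037 (1000 ug/m3, day 7), 149004 for animal 045 and 439393 for animal 024 (both 1000 ug/m3, day 27). Apart from those 3, the day 1 libraries were shallower than the later ones in both series, at 1145897 to 1733722 counts in animals 001 to 024 and 1042336 to 2397971 in animals 025 to 046. Type II markers (Sftpc, Sftpb, Sftpa1), type I markers (Ager, Hopx), the club cell gene Scgb1a1, the ciliated cell gene Foxj1 and the endothelial genes Pecam1 and Cdh5 were above 0 in all 36 libraries. The alveolar macrophage gene Marco was at 0 in 35 of them. Other alveolar macrophage genes, such as Cd68, Mrc1, Pparg and Itgax, had enough counts to be tested, while Ear1 had not. Among 42 pairs of libraries within a series and block, 0 were identical and the lowest chi-square per degree of freedom was 1.36. Levels below are counts scaled to a library total of 1000000 (CPM), with TMM factors over all 72 libraries. Fold changes are log2 values of animals 001 to 024 over animals 025 to 046 from 1 fit of the 36 libraries. Adjusted p-values are from edgeR's quasi-likelihood test with Benjamini-Hochberg adjustment over 13989 genes, and a gene is called below 0.05.

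Few genes separated the series. Across days and exposures, 1 of 13989 genes (0.00715%) was called, and that gene was Eln, which was higher in animals 001 to 024. At an unadjusted p below 0.05 there were 635 genes (4.54%), 414 of them higher (2.96%) and 221 lower (1.58%) in animals 001 to 024. The median log2 fold change of all genes was 0.0054 and 53% of genes were above 0. The 95% interval excluded a 2-fold difference for 99.3% of the genes and a 1.5-fold difference for 93.7%. DESeq2 called 3 genes, Eln, Arnt2 (0.33, adjusted p = 0.0451) and RT1-Da (−0.31, adjusted p = 0.0124), and limma-voom called Eln alone. Without animal 042 the edgeR test called 2 genes, Eln and RT1-Da. Without animals 024, 037 and 045 it called Eln alone again.

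**Figure D1:**
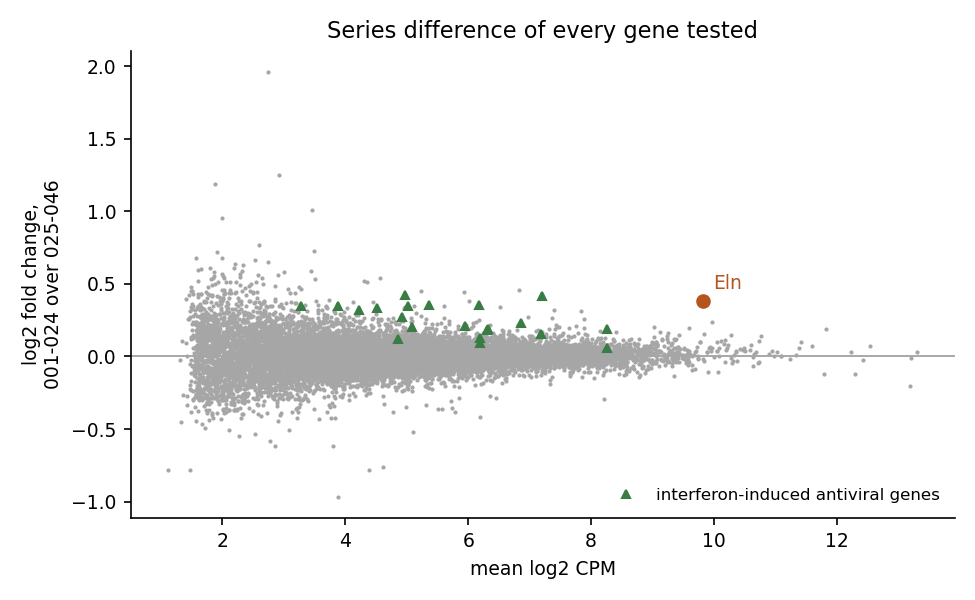
Log2 fold change of animals 001 to 024 over animals 025 to 046 (vertical axis) against mean log2 CPM (horizontal axis) for the 13989 genes tested, with Eln as an orange point and 21 interferon-induced antiviral genes as green triangles. Eln stands at 0.38 among genes of its level, and the green triangles all lie above 0.

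Eln was higher in animals 001 to 024 by 0.38 on the log2 scale (SE 0.058, 95% interval 0.26 to 0.50, adjusted p = 0.00107). At day 1 after 1000 ug/m3 its level was 1507, 1408, 1415 and 1443 CPM in animals 001 to 024, against 905 and 1270 CPM in animals 025 to 046. Air lungs at day 1 had 1265, 1536, 1536 and 1655 CPM in animals 001 to 024, against 1456 and 1139 CPM in animals 025 to 046, the only block in which the series overlapped. At day 7 the exposed lungs of animals 001 to 024 had 719, 824, 755 and 757 CPM, against 330 CPM in the shallow library of animal 037 and 543 CPM in the other exposed animal of 025 to 046. All 4 values of the first series lay above both of the second.

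Eln levels in air lungs at day 7 were 906, 819, 790 and 975.2 CPM in animals 001 to 024, against 783 and 633 CPM in animals 025 to 046. At day 27 exposed lungs had 589, 573, 621 and 480 CPM in animals 001 to 024, the last from the shallow library of animal 024, against 430 (animal 045, shallow) and 384 CPM in animals 025 to 046. Levels in air lungs at day 27 were 642, 707, 555 and 587 CPM in animals 001 to 024, against 525 and 499 CPM in animals 025 to 046. So the groups did not overlap in 5 of 6 blocks, which held in the same direction for no other of the 13989 genes (0.00715%). Means over both exposures at days 1, 7 and 27 were 1471 ± 116, 818 ± 85.1 and 594 ± 66.4 CPM in animals 001 to 024 (SD, n = 8 each), against 1193 ± 232, 572 ± 190 and 459 ± 64.4 CPM in animals 025 to 046 (SD, n = 4 each).

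**Figure D2:**
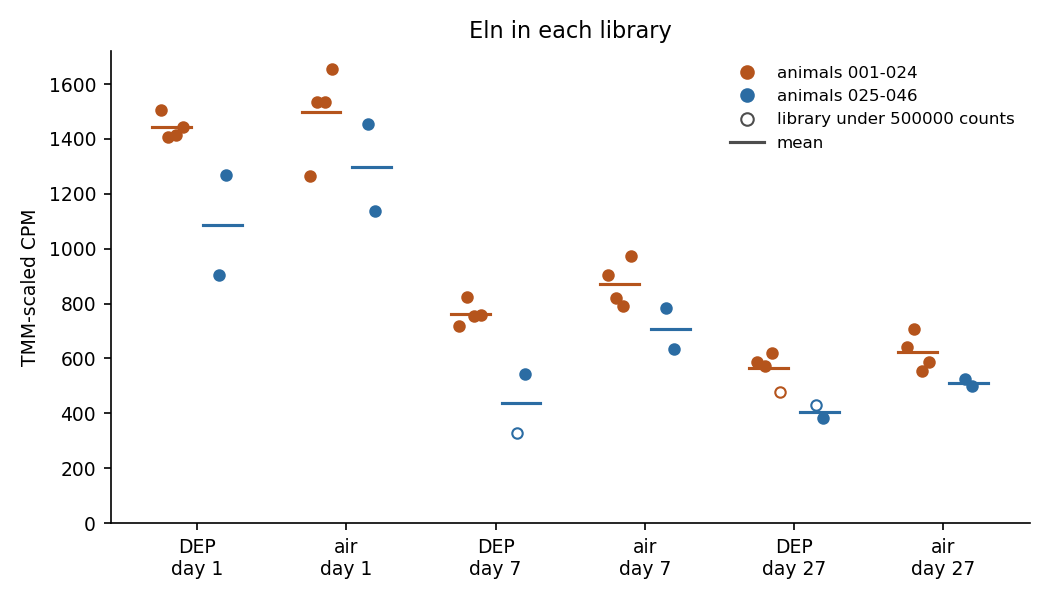
Eln in each of the 36 libraries, as TMM-scaled CPM (vertical axis, from 0), by exposure and day, with animals 001 to 024 in orange left of animals 025 to 046 in blue, open points for libraries under 500000 counts and a bar at each mean. The orange points lie above the blue ones in every block except air at day 1, and both are lower at later days.

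The Eln difference was 0.53 in exposed lungs (SE 0.085, adjusted p = 0.00435) and 0.27 in air lungs (SE 0.075, adjusted p = 0.646). These parts share no library. The test of the difference between them gave 0.27 (SE 0.11) with an unadjusted p of 0.022 and an adjusted p of 0.557, so exposure was not shown to change the gap. Of the 36 fits that leave out 1 library, 35 kept the call in exposed lungs, and the fit without animal 046 lost it (0.48, adjusted p = 0.147) and called Reep5 in its place. The number of genes called in exposed lungs was 2 without animal 001, 004, 005, 008, 014 or 024, 3 without animal 029 and 4 without animal 030 or 038. In air lungs 0 genes were called (844 at an unadjusted p below 0.05, 6.03%, 0 by DESeq2 and 0 by limma-voom), and the count was 1 without animal 010 or 022 and 2 without animal 034. Leaving out the 3 shallow libraries left the overall Eln difference at 0.35 (adjusted p = 0.00178). Leaving out each of the 36 libraries in turn gave 0.35 to 0.41, called every time. Counts thinned to 1 depth gave 0.29 (adjusted p = 0.27), and a test against a 1.5-fold limit did not call it.

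Several other matrix genes were also above 0, without passing the adjusted threshold. Of 15 genes in the fibroblast and matrix list, 13 were tested and 9 were above 0, Eln included, beside 53% of all genes. Eln was the 1 called, and the list's median was 0.10, against 0.0054 over all genes. Loxl1 was at 0.21 (SE 0.053, unadjusted p = 0.000332, adjusted p = 0.663) and Fbn1 at 0.14 (SE 0.043, adjusted p = 0.791). Col3a1, which encodes a fibrillar collagen, was at 0.19, and Postn, a matricellular protein, at 0.10. Inmt, a methyltransferase abundant in lung stroma, was at −0.38 (unadjusted p = 0.0388). Summed over the list's members, exposed lungs at day 1 had 8590 to 9229 CPM in animals 001 to 024, against 6051 and 7661 CPM in animals 025 to 046. The same sum in air lungs at day 7 was 7989 to 9409 CPM in animals 001 to 024, against 8912 and 8167 CPM in animals 025 to 046, so the order held in some blocks only.

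Looking library by library, 21 genes (0.15%) did not overlap in at least 4 of 6 blocks in 1 direction. Among them were Col4a1 and Lamc1, which encode basement membrane chains, Col5a2, a collagen of fibrils, and Nid1, a linker of basement membranes; these are named after their values were seen. Col4a1 was also apart in the opposite direction in 1 block, air at day 7, with 1586 to 1848 CPM in animals 001 to 024, against 1883 and 1894 CPM in animals 025 to 046. The overall log2 fold changes of Col4a1, Lamc1, Col5a2 and Nid1 were 0.14, 0.13, 0.11 and 0.17, each with an adjusted p above 0.7. No gene kept the series apart in 6 of 6 blocks. The sign alone was the same in 6 of 6 blocks for 230 genes higher (1.64%) and 137 genes lower (0.979%) in animals 001 to 024.

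The interferon-induced antiviral genes leaned towards animals 001 to 024 as a group, with 0 called. All 21 tested members, of 23 listed, were above 0, at 0.056 to 0.43, and the median was 0.23 against 0.0054 over all genes. At an unadjusted p below 0.05 there were 11 of 21 higher, beside 2.96% of all genes. The smallest p belonged to Mx2, a dynamin-like antiviral GTPase, at 0.42 (SE 0.13, adjusted p = 0.887). Its level in exposed lungs at day 1 was 204, 199, 150 and 179 CPM in animals 001 to 024, against 144 and 92.6 CPM in animals 025 to 046. In the air block of day 27 it was 120, 134, 133 and 80.2 CPM in animals 001 to 024, against 102 and 134 CPM in animals 025 to 046. The first block did not overlap and the last did. Ifi44l was at 0.36 and Oas1a, which makes the activator of RNase L, at 0.35, both with adjusted p-values of 0.887 or more. Oas2, a relative of Oas1a outside the list, was called in an edgeR fit of the exposed libraries only (1.08, adjusted p = 0.0342).

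By block, 19, 19, 21, 19, 17 and 14 of the 21 were above 0, in the order exposed and air at day 1, at day 7 and at day 27. The block medians in the same order were 0.42, 0.18, 0.32, 0.37, 0.25 and 0.024. The list's members vary together between animals, so they are not separate pieces of evidence. The list was also chosen with earlier results of these data known, which may favour a shared direction. Their summed level in exposed lungs at day 7 was 2044, 1499, 2485 and 1697 CPM in animals 001 to 024, against 1517 (animal 037, shallow) and 1579 CPM in animals 025 to 046. In air at day 27 the sum was 1553, 1776, 1786 and 1138 CPM in animals 001 to 024, against 1324 and 1644 CPM in animals 025 to 046. The spread within animals 001 to 024 was thus wider than the gap between the series. The direction held for 21 of 21 under every scaling, and without the 3 shallow libraries the median was 0.24.

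**Figure D3:**
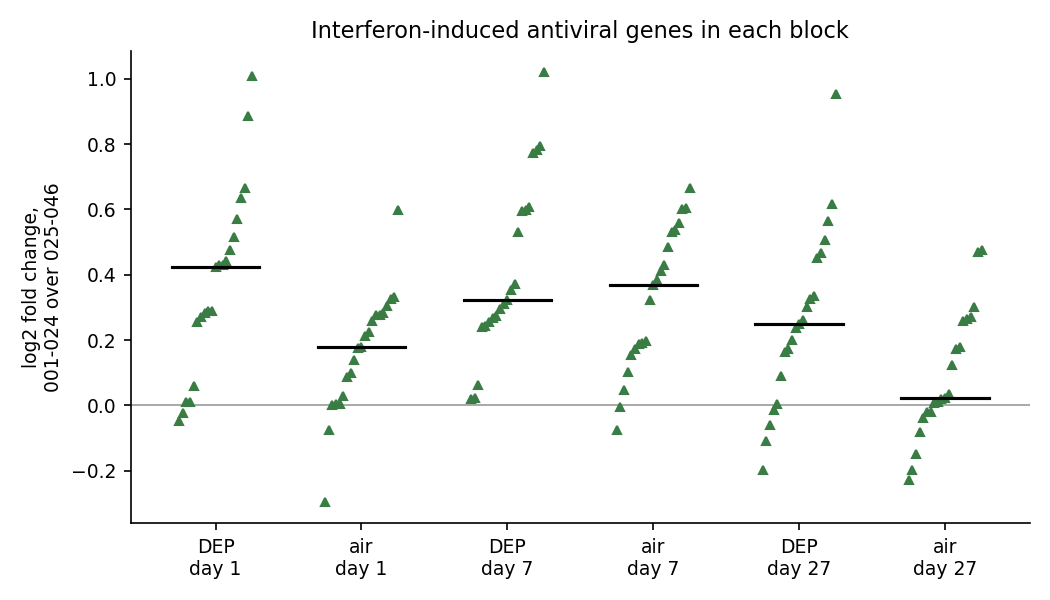
Log2 fold change of animals 001 to 024 over animals 025 to 046 (vertical axis) for 21 interferon-induced antiviral genes in each block of exposure and day, sorted within a block, with a black bar at the block's median. The medians are above 0.1 in 5 blocks and 0.024 in air at day 27.

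Among the other lists, Cyp1a1, the classic target of the aryl hydrocarbon receptor, was at 0.38 (SE 0.37, adjusted p = 1.00). In exposed lungs at day 1 it ranged from 10.6 to 26.6 CPM in animals 001 to 024, against 2.86 and 10.5 CPM in animals 025 to 046. In air lungs at day 1 it ranged from 3.13 to 29.4 CPM in animals 001 to 024, against 17.1 and 8.46 CPM in animals 025 to 046. Outside the fibroblast and matrix list, no list had a called member in the series difference. The heart muscle list had a median of 0.21 with 8 of 8 members above 0, and the mast cell list one of 0.22 with 5 of 6 above 0. The red blood cell list had 9 of 9 above 0 with a median of 0.17. The T cell list had 11 of 13 below 0 with a median of −0.067. These lists are some of 43, and 53% of all genes were above 0. Members of a list may vary together between animals, so they are not separate pieces of evidence.

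At day 1 the series differed in 28 genes (0.2%), 16 higher (0.114%) and 12 lower (0.0858%) in animals 001 to 024. With no scaling factors 28 genes were called again, but 21 of them were the same ones, and that set split into 9 higher and 19 lower. The lower genes included RT1-Da, 4 ribosomal protein genes (Rpl13a, Rpsa, Rps3 and Rpl5) and Cybb, the catalytic subunit of the phagocyte NADPH oxidase. The higher ones included the basement membrane genes Nid1, Col4a1 and Lamc1, fibronectin (Fn1), the VEGF receptor gene Flt1 and Figf, an older symbol of the lymphatic growth factor gene Vegfd. At day 7 the average difference of 11 of the 28 kept its sign, and at day 27 that of 20.

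The day 1 count moved with single libraries. It was 125 without animal 001, 124 without 029, 48 without 005 and 44 without 030. It was 17 without animal 015 or 042, 16 without 007, 15 without 002 or 019, 14 without 041 and 12 without 006. It was 8 without animal 004, 5 without 003 and 2 without 026. DESeq2 called 91 genes and limma-voom 1, RT1-Da. The sign of all 28 held in each of these fits, which choosing them by this same difference favours.

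RT1-Da was lower in animals 001 to 024 at day 1 by a log2 difference of −0.66 (SE 0.081, adjusted p = 3.31e-06). Exposed lungs at day 1 had 222, 166, 196 and 222 CPM in animals 001 to 024, against 300 and 367 CPM in animals 025 to 046. Air lungs at day 1 had 247, 236, 205 and 182 CPM in animals 001 to 024, against 341 and 318 CPM in animals 025 to 046. The series did not overlap in either block, and each block passed on its own, with RT1-Da as the single gene called (0.00715%), at −0.72 (adjusted p = 0.00333) in exposed and −0.60 (adjusted p = 0.0341) in air lungs. With limma-voom both block calls were lost (adjusted p = 0.0518 in exposed and 0.125 in air lungs). In air the call was lost in 16 of 36 fits that leave out 1 library, with adjusted p-values up to 0.389, and in exposed lungs in 1 of 36, with 0.156. The day 1 call over both exposures held in 36 of 36.

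After day 1 the RT1-Da gap was smaller and not called, at −0.17 at day 7 (unadjusted p = 0.0455, adjusted p = 0.679) and −0.064 at day 27 (adjusted p = 1.00). Exposed lungs at day 7 had 287 to 345 CPM in animals 001 to 024, against 373 (animal 037) and 344 CPM in animals 025 to 046. Air lungs at day 7 had 255 to 300 CPM in animals 001 to 024, against 322 and 319 CPM in animals 025 to 046, again without overlap. At day 27 exposed lungs had 267 to 373 CPM in animals 001 to 024, against 373 (animal 045) and 332 CPM in animals 025 to 046, and both 373 values came from shallow libraries. At day 27 air lungs had 312 to 350 CPM in animals 001 to 024, against 335 and 314 CPM in animals 025 to 046. Over both exposures, animals 001 to 024 averaged 210 ± 27.7 CPM at day 1, 297 ± 26.8 at day 7 and 323 ± 33.7 at day 27 (SD, n = 8 each). Animals 025 to 046 averaged 331 ± 29.1, 339 ± 24.9 and 339 ± 24.6 CPM (SD, n = 4 each). The change of the gap from day 1 to day 7 was 0.50 (SE 0.12, adjusted p = 0.0422), a call that held in 12 of 36 fits that leave out 1 library and was lost with RLE factors (adjusted p = 0.0547) and with limma-voom (adjusted p = 0.0587). The 12 L animals of day 1, outside this fit, lay between the series at 271 ± 34.6 CPM (SD, n = 12), with no test made.

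The class I, class II and antigen presentation list as a whole was mixed at day 1. Of its 26 tested members 10 were above 0 and 16 below, with a median of −0.047 against 0.0066 over all genes, and RT1-Da was the 1 called. Values of a few other members follow, none of them called. RT1-Bb was at −0.76 (SE 0.19, adjusted p = 0.0843) and RT1-Ba at −0.64 (SE 0.21, adjusted p = 0.229); they encode the other class II pair of the rat. RT1-S3, a class I gene, was on the opposite side at 0.46 (SE 0.16, adjusted p = 0.248), and Tap2, part of the peptide transporter that feeds class I molecules, at 0.21 (adjusted p = 0.894). Cd74, the invariant chain that chaperones class II molecules, was at −0.32 (SE 0.076, adjusted p = 0.0545). Cd74 measured 754, 630, 858 and 875 CPM in exposed day 1 lungs of animals 001 to 024, against 879 and 1171 CPM in animals 025 to 046. Ciita, the master activator of class II genes, was at −0.12 (SE 0.13, adjusted p = 0.777), and RT1-Db1 at −0.062. Members of B and plasma cell lists summed to 78.2 to 141 CPM in the 8 day 1 libraries of animals 001 to 024, against 78.9 to 127 CPM in the 4 of animals 025 to 046; those ranges overlap. Macrophage and monocyte genes outside the alveoli summed to 711 to 947 CPM in animals 001 to 024, against 680 to 924 CPM in animals 025 to 046. RT1 genes are a family of similar sequences, so reads may be shared between members.

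**Figure D4:**
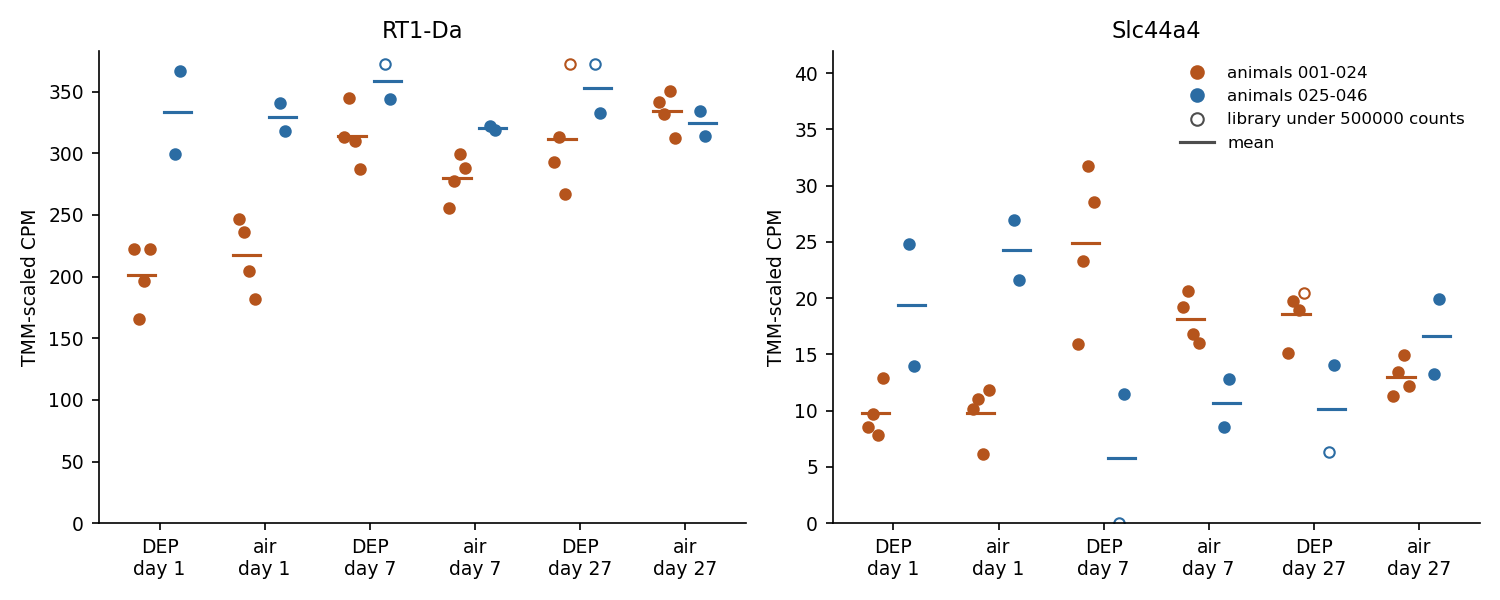
RT1-Da (left panel) and Slc44a4 (right panel) in each of the 36 libraries, as TMM-scaled CPM (vertical axes, from 0), by exposure and day, with animals 001 to 024 in orange left of animals 025 to 046 in blue, open points for libraries under 500000 counts and a bar at each mean. Both genes are lower in orange at day 1, RT1-Da is close at day 27, and Slc44a4 is higher in orange at day 7.

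The difference between the series depended on the day for 10 genes in the test over all 3 days (0.0715%), and for 32 genes between days 1 and 7 (0.229%). Of the 32, the difference was higher at day 7 for 11 (0.0786%) and lower for 21 (0.15%). Unscaled counts gave 12 and 15, and RLE factors 7 and 21. In 21 of the 32 animals 001 to 024 had the higher level at day 1 and the lower one at day 7, and in 10 the reverse, which choosing genes by this change favours. Between days 1 and 27, 0 genes were called by edgeR (1073 at an unadjusted p below 0.05, 7.67%), 1 by DESeq2 and 0 by limma-voom. Without animal 001 or 023 the count was 1 there, and without 029 or 046 it was 4.

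The count of 32 also moved with single libraries. It was 91 without animal 001, 90 without 029 and 50 without 005. It was 21 without animal 004, 20 without 003, 19 without 006 and 14 without 015. It was 11 without animal 038, 5 without 026 and 3 without 033. All 32 kept their sign in each of these fits, which choosing them by this same change favours. DESeq2 called 79 genes, 22 of them shared with the 32, and limma-voom 21, of which 18 were shared. The count of the test over all days was between 16 and 25 without animal 001, 005, 008, 012, 013, 021, 023, 029, 030 or 034, 6 without 017 or 041, 2 without 033, 1 without 026 and 0 without 038.

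Slc44a4, a choline and thiamine pyrophosphate transporter of epithelia, led this comparison, with a change of 2.11 (SE 0.30, adjusted p = 0.000178) from day 1 to day 7. Exposed lungs at day 1 had 8.58, 9.75, 7.80 and 12.9 CPM in animals 001 to 024, against 24.8 and 13.97 CPM in animals 025 to 046. Air lungs at day 1 had 10.2, 11.02, 6.16 and 11.9 CPM in animals 001 to 024, against 27.0 and 21.6 CPM in animals 025 to 046. At day 7 exposed lungs had 15.9, 23.3, 31.8 and 28.5 CPM in animals 001 to 024, against 0 in the shallow library of animal 037 and 11.5 CPM in animals 025 to 046. Air lungs at day 7 had 19.3, 20.6, 16.8 and 16 CPM in animals 001 to 024, against 8.55 and 12.8 CPM in animals 025 to 046. None of the 4 blocks overlapped, and the order of the series was opposite at the 2 days.

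At day 27 the Slc44a4 difference was 0.015, with 11.3 to 20.5 CPM in animals 001 to 024, against 6.32 to 19.97 CPM in animals 025 to 046. The call between days 1 and 7 held in 36 of 36 fits that leave out 1 library, with changes of 1.88 to 2.28 in all but the fit without animal 038. That fit gave 6.20, since it leaves the shallow library at 0 as the lone exposed one of animals 025 to 046 at day 7. Without the 3 shallow libraries it was called as well. Limma-voom gave an adjusted p of 0.00918, and DESeq2 gave none for this gene. Reads of Slc44a4 are few, and the strand setting of the counting is not given in the sources used here, so reads of an overlapping gene cannot be set apart.

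Ribosomal protein genes encode the protein parts of ribosomes. Of 23 in the list, 22 were tested. All 22 were below 0 at day 1, when 51.3% of all genes were above 0. The median was −0.24 against 0.0066 over all genes. Of the 22, 2 were called lower, Rpl5 and Rps3, beside 0.0858% of all genes. Members of the list may vary together between animals, so they are not separate pieces of evidence. Rpl13a and Rpsa, called at day 1 as well, are ribosomal genes outside the list. The summed level of the list at day 1 was 3532 to 4252 CPM in the 8 libraries of animals 001 to 024, against 4369 to 4693 CPM in the 4 of animals 025 to 046, with no overlap. At day 7 the sum was 5226 to 6105 CPM in animals 001 to 024, against 4634 to 5707 CPM in animals 025 to 046, so these ranges overlap; 19 of 22 were above 0 with a median of 0.13, and 0 were called. At day 27 it was 4668 to 5388 CPM in animals 001 to 024, against 4866 to 5430 CPM in animals 025 to 046. The 12 L libraries of day 1 spread from 3737 to 5222 CPM and so covered both series. Of the ribosomal genes, Rpsa, Rpl13a and Rps3 passed the test of a change between days 1 and 7, at 0.51, 0.45 and 0.56, and Rps3 was the 1 listed gene among them. The call of Rpsa held in 33 of 36 fits that leave out 1 library, that of Rpl13a in 25 and that of Rps3 in 20, with adjusted p-values up to 0.111, 0.171 and 0.199. Rpl13a also lost it without the 3 shallow libraries (adjusted p = 0.0635) and Rps3 with RLE factors (adjusted p = 0.0521).

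The day 1 libraries are also the shallowest of each series after the 3 named above, and the part of depth in these differences was not tested. The difference was higher at day 7 than at day 1 for Cst3, which encodes the protease inhibitor cystatin C (0.65, SE 0.14, adjusted p = 0.0306) and for LOC100360368 (1.42, SE 0.31, adjusted p = 0.0306), which RefSeq lists as the histone pseudogene H3f3a-ps9, so its reads may belong to a near-identical gene. Cst3 in exposed lungs at day 7 was 573, 547, 572 and 628 CPM in animals 001 to 024, against 486 (animal 037, shallow) and 372 CPM in animals 025 to 046.

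Of the 21 genes whose difference was lower at day 7 than at day 1, the 5 with the smallest p are given first. LOC100360205, listed by RefSeq as Palld, an actin-bundling protein, changed by −0.77 (SE 0.13, adjusted p = 0.00212). Exposed lungs at day 1 had 355, 437, 346 and 324 CPM in animals 001 to 024, against 288 and 242 CPM in animals 025 to 046. Exposed lungs at day 7 had 127, 95.1, 99.98 and 110 CPM in animals 001 to 024, against 139 and 149 CPM in animals 025 to 046. Both blocks were without overlap, in opposite order, with the 139 CPM from the shallow library of animal 037.

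LOC685707, listed by RefSeq as the microtubule-associated gene Nav1, changed by −0.78 (SE 0.13, adjusted p = 0.00212). Sh3pxd2a, a scaffold of podosomes, changed by −0.61 (SE 0.11, adjusted p = 0.00487), and Pcdhgc3, a clustered protocadherin, by −0.79 (SE 0.15, adjusted p = 0.0154). Kdr, the main VEGF receptor of endothelium, changed by −0.60 (SE 0.12, adjusted p = 0.0306). Kdr in air lungs at day 7 was 313, 313, 288 and 290 CPM in animals 001 to 024, against 441 and 367 CPM in animals 025 to 046. In air at day 1 it was 1034, 1041, 936 and 940 CPM in animals 001 to 024, against 846 and 833 CPM in animals 025 to 046.

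Kdr was the called member of the endothelial list, whose 13 members were all tested. Of these, 11 were above 0 at day 1 with a median of 0.15, and 5 at day 7 with a median of −0.046. The fibroblast and matrix list had 11 of 13 above 0 at day 1, with a median of 0.22, and 7 of 13 at day 7, with a median of 0.016 that turned to −0.0089 with RLE factors and −0.058 without the 3 shallow libraries. Vcan, a large matrix proteoglycan, changed by −1.28 from day 1 to day 7 and Gli2, a hedgehog-pathway factor, by −1.26, each with an adjusted p of 0.0306.

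**Figure D5:**
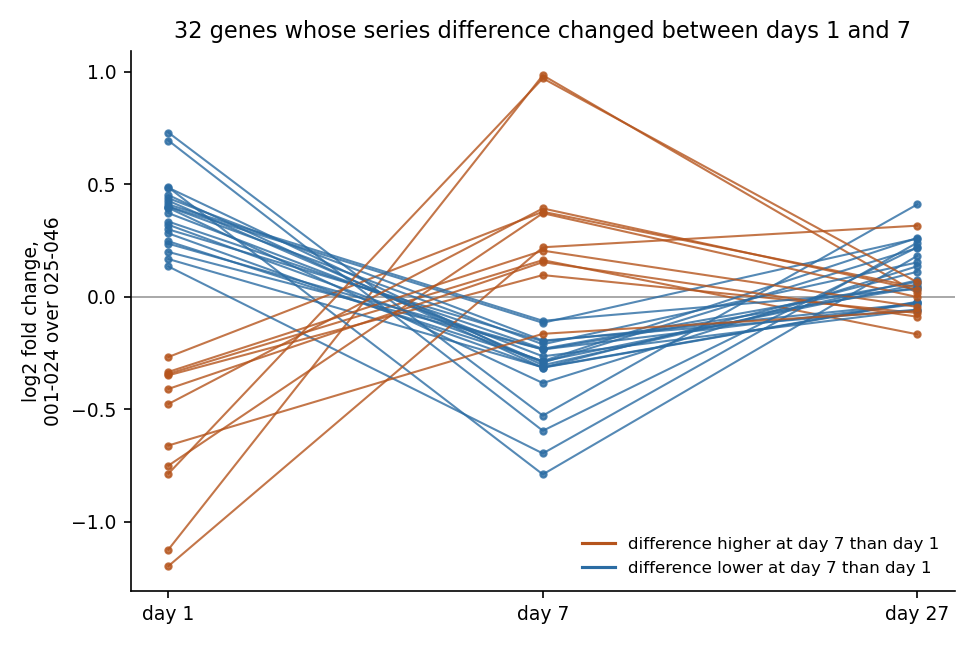
Log2 fold change of animals 001 to 024 over animals 025 to 046 (vertical axis) at days 1, 7 and 27 after exposure (horizontal axis), 1 line for each of the 32 genes whose difference changed between days 1 and 7, orange where it was higher at day 7 (11 genes) and blue where it was lower (21 genes). The lines cross 0 between days 1 and 7 in all genes except RT1-Da, and at day 27 all lines lie between −0.5 and 0.5.

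At day 7 alone, 3 genes were called (0.0214%), Slc44a4 at 0.98, Figf at 0.86 and Spry4 at −0.70, each with an adjusted p of 0.0405. Figf in air lungs at day 7 was 33.2, 21.6, 29.8 and 30.4 CPM in animals 001 to 024, against 9.08 and 15.7 CPM in animals 025 to 046. In exposed lungs at day 7 it was 19.5, 23.6, 16.6 and 22.4 CPM in animals 001 to 024, against 8.67 and 14.8 CPM in animals 025 to 046. The 8.67 CPM was 1 read in the shallow library of animal 037. Figf was higher by a like amount at day 1 (0.85, adjusted p = 0.0449), and at day 27 its difference was −0.14. These day 7 calls moved with the tool and with single libraries. DESeq2 called 9 other genes and gave none of the 3 an adjusted p, and limma-voom called 1 other gene, Vcan, with adjusted p-values of 0.155 for Slc44a4 and 0.094 for Figf and for Spry4. In 15 of the 36 fits that leave out 1 library the count was 0, namely without animal 002, 004, 005, 006, 008, 009, 012, 014, 017, 024, 026, 033, 037, 041 or 042. It was 1 without animal 010, 013 or 016, 5 without 001, 011 or 030, and 9 without 034. Without the 3 shallow libraries it was 0. A fit of the day 7 libraries alone called 3 other genes, LOC102723236, Lpcat1 and Rmrp.

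Between days 7 and 27 the difference changed for 2 genes (0.0143%). Spry4, an inhibitor of growth factor signalling, changed by 0.94 (SE 0.18, adjusted p = 0.0452). In exposed lungs at day 7 Spry4 was 14.6, 19.5, 12.98 and 20.4 CPM in animals 001 to 024, against 26.01 (animal 037, shallow) and 33.01 CPM in animals 025 to 046. In exposed lungs at day 27 it was 47.3, 56.3, 34.9 and 31.8 CPM in animals 001 to 024, against 18.96 (animal 045, shallow) and 38.5 CPM in animals 025 to 046. Sytl2, a vesicle-tethering protein, changed by 3.78 (SE 0.70, adjusted p = 0.0452), a value that rests on very low levels. Its level in exposed lungs at day 27 was 5.83 to 13.6 CPM in animals 001 to 024, against 0 (animal 045) and 0.365 CPM in animals 025 to 046. Both calls were lost without the 3 shallow libraries. The count was 0 in 25 of the 36 fits that leave out 1 library, 1 without animal 002, 016 or 023, 5 without 046 and 7 without 034. At day 27 itself 0 genes were called (561 at an unadjusted p below 0.05, 4.01%, 0 by DESeq2 and 0 by limma-voom), and 4 without animal 046. A fit of the day 27 libraries alone called 1 gene, Plet1 (0.57, adjusted p = 0.0245).

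Exposure itself was compared within each series, 12 exposed against 12 air lungs in animals 001 to 024 and 6 against 6 in animals 025 to 046, averaged over days. In animals 001 to 024, 0 genes were called (675 at an unadjusted p below 0.05, 4.83%). DESeq2 and limma-voom each called 1, Nr1d1, a repressor of the circadian clock, which edgeR put at 1.34 (SE 0.24, adjusted p = 0.0738). Nr1d1 at day 1 in animals 001 to 024 was 34.3, 34.6, 55.3 and 29.7 CPM in exposed lungs, against 10.95, 14.7, 16.4 and 13.1 CPM in air lungs. At day 7 it was 9.9 to 14.1 CPM in exposed and 1.24 to 6.63 CPM in air lungs of this series. At day 27 these ranges overlapped, at 5.08 to 11 CPM in exposed and 1.92 to 8.61 CPM in air lungs. In animals 025 to 046 the exposure difference of Nr1d1 was 0.75 (SE 0.41, adjusted p = 0.605), with 41.96 and 12.2 CPM in exposed lungs at day 1, against 15.1 and 7.19 CPM in air lungs. Their exposed and air means were 2.56 and 3.82 CPM at day 7, the opposite order, and 5.89 and 3.49 CPM at day 27. The test of the difference between the series gave 0.59 (SE 0.48, adjusted p = 0.81). The count in animals 001 to 024 was 1 without animal 012, 019, 029 or 030 and 2 without 020.

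In animals 025 to 046, 0 genes were called between exposed and air lungs (1308 at an unadjusted p below 0.05, 9.35%; 0 by DESeq2 and 0 by limma-voom). The count was 1 without animal 003, 023 or 046, 4 without 026, 10 without 034 and 14 without 030. No gene passed the test of whether the exposure difference depends on the series (1067 at an unadjusted p below 0.05, 7.63%; 0 by DESeq2 and 0 by limma-voom), and the count was 2 without animal 009 and 1 without 046. Cyp1a1, a gene that aryl hydrocarbons of soot can induce, differed between exposed and air lungs by −0.028 (SE 0.39) in animals 001 to 024 and by −0.21 (SE 0.71) in animals 025 to 046, where DESeq2 put it at 0.24. The difference between these was 0.18 (SE 0.82, adjusted p = 0.999). Of 7 tested members of the aryl hydrocarbon receptor list, 2 were above 0 with exposure in each series and 0 were called. For the 14 genes of the NRF2 antioxidant list the medians were −0.042 in animals 001 to 024 and −0.050 in animals 025 to 046, with 0 called.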

How the data were processed

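Lung RNA of 72 rats was sequenced after rRNA depletion with a stranded total RNA kit, per the labels' protocols. Raw counts for each gene symbol were deposited by the authors as a single table. Per the submitters' processing notes, the tools were HTSeq 0.6.1, HISAT2 2.1.0, SAMtools 1.8, Trimmomatic 0.35 and bcl2fastq 2.19, with the build Rnor_6.0. Which annotation release and which strand option were used is not given in the sources used here. The deposited counts of 30042 symbols were taken as they are; 23478 had a count in the 36 H libraries.

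Groups came from the animal number in each title. Genes were kept with filterByExpr (minimum count 10, number series as group), which left 13989. The series difference was fitted with edgeR 4.0.16 in R 4.3.3 (TMM, robust quasi-likelihood) with 6 blocks of day and exposure. A fit with 12 group means gave the contrasts by block, day and exposure. P-values were adjusted by Benjamini-Hochberg over all 13989 genes, at 0.05. Standard errors came from the F statistics and intervals are 95%. TMM-scaled CPM (counts per 1000000) were computed here from the deposited counts. Totals ran from 105453 to 6520180 counts, and 3 libraries under 500000 were kept and also left out. Each animal gave 1 library, so p-values measure the spread between animals.

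Genes named were those called for the series difference with the same sign in 6 of 6 blocks, up to 5 in each direction for the tests by day and exposure, the called or smallest-p members of each described list, and Cyp1a1; others are values of listed genes or were chosen after their values were seen. The members were set by the title numbers, but the comparison and the 43 gene lists were chosen with earlier results of these data known. Alternatives included RLE or no scaling factors, other filters, DESeq2 1.42.0, limma-voom (limma 3.58.1), 1 surrogate variable (sva 3.50.0), thinned counts, all 72 libraries, and leaving out each library. Contrasts by single day and by exposure group were added after seeing the data. The scripts were tested on simulated data. Promoter sequences came from RefSeq (GRCr8), matched by symbol, and LOC symbols were looked up in the same assembly for names only.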

Additional observations from a re-analysis of the deposited data

Results flagged for a closer look

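In 12 tests the difference between animals 001 to 024 and animals 025 to 046 itself differed between days. From day 1 to day 7 it changed by 2.11 for Slc44a4, 0.505 for Rpsa, 0.645 for Cst3, 1.42 for LOC100360368 and 0.445 for Rpl13a on the log2 scale. Over the same days it changed by −0.767 for LOC100360205, −0.778 for LOC685707, −0.607 for Sh3pxd2a, −0.789 for Pcdhgc3 and −0.597 for Kdr. From day 7 to day 27 it changed by 0.937 for Spry4 and 3.78 for Sytl2, and both calls were lost without the 3 shallow libraries. The day 1 libraries had lower totals than the later ones in both series, apart from the shallow later libraries of animals 024, 037 and 045, and the part of depth in these changes was not tested.

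Of 282 groups of 4 libraries checked, 14 held a library far from the other 3 by Dixon's criterion; chance flags about 1 in 20 groups. Animal 001 (air, day 1) had 351.1 CPM of Cst3 and 30.5 CPM of Gli2, both above its group. Animal 002 (air, day 1) had 12.86 CPM of Sytl2, above its group. Among exposed day 1 lungs, animal 005 was low in Sh3pxd2a at 408.5 CPM, animal 006 high in Ciita at 53.16 CPM and animal 007 high in Vcan at 121.2 CPM.

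Among air lungs at day 7, animal 011 was low in Terf2ip at 51.2 CPM and high in Vcan at 60.76 CPM. Animal 012 was high in Col3a1 at 5226 CPM and in the summed fibroblast and matrix genes at 9409 CPM. In exposed lungs at day 7, animal 014 had 13.28 CPM of RT1-T24-4, against 1.381 to 2.604 CPM in the other 3. At day 27, animal 017 (air) was high in Kdr at 759.9 CPM, animal 020 (air) high in Pcdhgc3 at 110.7 CPM and animal 022 (exposed) low in Nid1 at 258.6 CPM.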

How the results depend on the processing

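No value of a named gene that was called changed its sign in these alternatives, which choosing called genes favours. The series difference was called for 3 genes with DESeq2 and 2 in exposed libraries only. Fits of single days called 17 genes at day 1, 1 (Plet1) at day 27 and 3 at day 7. The 3 at day 7 were LOC102723236, Lpcat1 and Rmrp, none of them called at day 7 in the main fit. None of the 17 or of these 3 was Eln. The count was 0 without blocks, in air only, against a fold limit of 1.5 and with thinned counts. Eln's adjusted p was then 1 without blocks and 0.27 with thinned counts. It was 0.528 in air and 0.227, 0.246 and 0.383 at days 1, 7 and 27 only, in fits of fewer libraries. The cause of these losses was not tested. With no filter the counts were 40 over all days, 2 between days 1 and 27, 10 between days 7 and 27, 5 at day 7, 2 in exposed and 1 in air lungs, and 1 and 12 for exposure in animals 001 to 024 and 025 to 046. With DESeq2 they were 42 over all days, 79 between days 1 and 7, 1 between days 1 and 27, 1 between days 7 and 27, 91 at day 1, 9 at day 7, 2 in exposed lungs and 1 for exposure in animals 001 to 024. With limma-voom they were 4, 21, 0 (days 7 and 27), 1 at day 1, 1 at day 7 and 1 for exposure in animals 001 to 024. Between days 7 and 27 the count was 0 with RLE factors, at 1 CPM in 12 libraries and without the shallow libraries; day 7 gave 0 without them. In exposed lungs it was 2 with RLE and with no factors.

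Leaving out each library gave 1 to 2 genes for the series difference, 0 to 2 by exposure, 0 to 25 over all days, 3 to 91 between days 1 and 7, 0 to 4 between days 1 and 27 and 0 to 7 between days 7 and 27. It gave 0 to 2 and 0 to 14 for exposure in animals 001 to 024 and 025 to 046, 2 to 125 at day 1, 0 to 9 at day 7, 0 to 4 at day 27, 1 to 4 in exposed and 0 to 2 in air lungs. No paired analysis was possible because each animal number occurs once and the labels pair no animals. Library depth, lowest at day 1 and in animals 024, 037 and 045, and 2 libraries a block in animals 025 to 046 limit all values by block.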
